A study of Mus musculus with 20 samples.

Results

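The genes described here were 8 members of the muscle atrophy program, chosen as a named list: the ubiquitin ligase genes Fbxo32, Trim63, Fbxo30 and Fbxo21, the forkhead factors Foxo1, Foxo3 and Foxo4, and the zinc-finger factor Klf15. They are 8 of the 55401 genes in the count matrix, and all 8 passed the filter on low counts, which left 13626 genes. Their RNA was measured in a calf muscle, the gastrocnemius, of 20 C57BL/6 mice killed at 24 months. Of these, 10 mice drank Haenkenium (HK), a standardized extract of the plant Salvia haenkei, at 0.5 mg/kg/day from 20 months of age for 4 months, and 10 mice were left untreated (UT). Each treatment group held 5 males and 5 females. The labels give 2 experimental batches: batch 1 with 8 mice (4 HK-treated, 4 UT) and batch 2 with 12 mice (6 HK-treated, 6 UT). All mice were old, so the values bear on HK in aged muscle and carry no comparison with young muscle.

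Skeletal muscle loses mass when protein breakdown outpaces synthesis, and much of that breakdown runs through ubiquitin ligases that mark muscle proteins for the proteasome. Fbxo32 encodes atrogin-1 (MAFbx) and Trim63 encodes MuRF1, the ligases best known for rising in fasting, disuse and glucocorticoid excess. Fbxo30 (MUSA1) and Fbxo21 (SMART) encode further F-box subunits of SCF ligases linked to muscle wasting. FoxO factors drive these genes when insulin and IGF-1 signaling through Akt is low, because Akt phosphorylates FoxO and keeps it out of the nucleus. Klf15 is a target of the glucocorticoid receptor and promotes branched-chain amino acid breakdown.

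The DNA just upstream of Trim63 and Klf15 is shown because these are the members whose upstream windows held one of the regulatory motifs searched for. RefSeq windows (GRCm38.p6, 250 bases before the start of the gene) were given for 6 of the 8 members, and none for Fbxo32 and Foxo4. The motifs, searched on both strands, were TTGTTTAC for FoxO, the palindrome of AGAACA and TGTTCT with 3 bases between them for the glucocorticoid receptor, CACGTG for the E-box and TATAAA for the TATA box. The receptor palindrome without its outer bases (GAACA and TGTTC) was added after the Trim63 window had been read. Capitals mark the matches. The Trim63 window lies at chr4:134314870-134315119 on the plus strand and the Klf15 window at chr6:90462326-90462575 on the plus strand.
Trim63: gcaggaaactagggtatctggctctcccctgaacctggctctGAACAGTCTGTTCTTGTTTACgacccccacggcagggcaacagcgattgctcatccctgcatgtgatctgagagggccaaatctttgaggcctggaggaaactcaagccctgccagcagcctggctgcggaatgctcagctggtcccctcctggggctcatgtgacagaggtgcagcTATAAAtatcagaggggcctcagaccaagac
Klf15: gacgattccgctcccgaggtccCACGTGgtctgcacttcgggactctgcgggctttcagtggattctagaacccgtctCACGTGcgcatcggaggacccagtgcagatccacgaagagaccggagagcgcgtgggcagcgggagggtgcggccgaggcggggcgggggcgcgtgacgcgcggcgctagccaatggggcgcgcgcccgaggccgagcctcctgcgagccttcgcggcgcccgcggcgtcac

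In the Trim63 window the shortened receptor palindrome began at base −208, counted from the start of the gene, and ran directly, with no overlap, into the FoxO element, which began at −195. A TATA box began at −31. Among all 32851 RefSeq windows of the same length, 1.07% held the FoxO element, 0.0396% the shortened palindrome, 0.00913% the full palindrome and 12.4% the TATA box. The Klf15 window held the E-box at −228 and −172, and 6.02% of all windows held it at least once. The windows of Foxo1, Foxo3, Fbxo21 and Fbxo30 held none of these letters. RefSeq and GENCODE M21 place the starts of these 4 genes differently: by GENCODE the Fbxo30 window lies inside the gene, and those of Fbxo21, Foxo3 and Foxo1 reach into it. The Trim63 and Klf15 windows end at the base before the start in both. A match describes the sequence and does not show that a factor binds there.

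The genes lie on 7 chromosomes in the GENCODE M21 annotation of GRCm38. Trim63 lies on chromosome 4 from 134315120 to 134329629 and Fbxo32 on chromosome 15 from 58175879 to 58214932. Foxo1 lies on chromosome 3 from 52268336 to 52353221, Foxo3 on chromosome 10 from 42181841 to 42276755, and Foxo4 on chromosome X from 101254528 to 101260873. Klf15 lies on chromosome 6 from 90462576 to 90475238, Fbxo30 on chromosome 10 from 11281330 to 11298052, and Fbxo21 on chromosome 5 from 117976730 to 118010201. An antisense gene, Gm15943, overlaps Fbxo32 and held 6 counts over all mice beside 25934 for Fbxo32. Foxo1 (15391 counts) is overlapped by the antisense gene Gm20402 with 2 counts and by Gm38034 with 44.

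Total counts per mouse ranged from 13900180 to 30469644, with 13994011 to 30469644 in batch 1 and 13900180 to 17951683 in batch 2. The least counted member, Fbxo21, still had 172 to 443 counts in each mouse. The tissue label was borne out by 9 fast muscle markers, which summed to between 165624 and 228076 CPM (counts scaled to library size by TMM) and were at 0 in no mouse. Slow muscle markers summed to 771 to 6333 CPM, with the highest sum in UT male 3 and 808 to 1977 CPM in the other 4 UT males.

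Per kilobase of exon, Trim63 was the most abundant of the 8 transcripts. On the RPKM scale (CPM per kilobase of exon), its level was 152 ± 71.2 (SD, n = 20), followed by Foxo4 at 53.4 ± 6.22, Klf15 at 17.4 ± 5.34 and Fbxo32 at 10.3 ± 2.52. In 20 of 20 mice Trim63 lay above Foxo4, Foxo4 above Klf15 and Klf15 above Fbxo32. Foxo1 (5.21 ± 3.59 RPKM) and Foxo3 (5.10 ± 1.29 RPKM) could not be ordered, with Foxo1 the higher in 7 of 20 mice. Fbxo30 (3.99 ± 0.628 RPKM) and Fbxo21 (2.45 ± 0.388 RPKM) were the lowest, and Fbxo21 lay below Fbxo30 in every mouse. Among the F-box ligases, Fbxo32 thus had the highest level per kilobase, and the FoxO family was led by Foxo4, whose level varied least of the 3 forkhead genes.

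**Figure D1:**
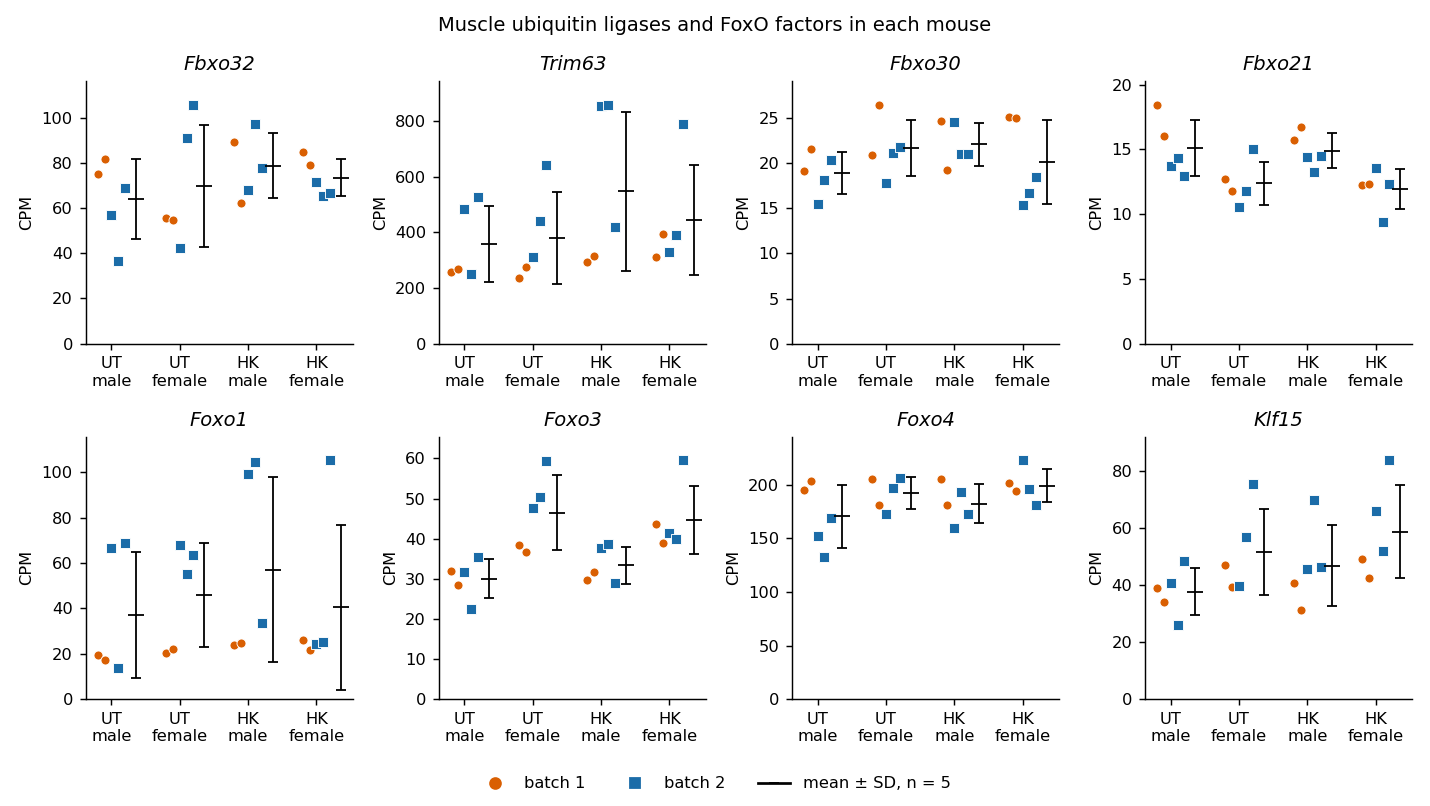
Level of each of the 8 genes in each of the 20 mice, in CPM on the vertical axis, for UT and HK males and females (orange circles, batch 1; blue squares, batch 2; black, mean ± SD of 5 mice). Trim63 reached 857 and 860 CPM in HK males of batch 2. Foxo1 lay at 13.9 to 33.6 CPM in 12 mice and at 55.4 to 105 CPM in 8 mice, the latter all from batch 2.

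The first comparison asked whether HK changed these genes in old muscle. No member passed the threshold of an adjusted p under 0.05 in edgeR's quasi-likelihood test, and none of the 13626 genes did (0% called in either direction), beside 835 genes (6.13%; 2.78% higher and 3.35% lower) with an unadjusted p under 0.05. limma voom called 0 genes and DESeq2 called 7, no member among them. Trim63 had the largest fitted difference. Its level was 294 to 860 CPM (median 392) in HK-treated and 235 to 645 CPM (median 293) in UT mice, and 10 of 10 HK-treated mice lay above the UT median, although the groups overlapped. The fitted fold was 1.32 (95% interval 1.02 to 1.73; log2 0.40 ± 0.18 SE), with an unadjusted p of 0.0390 and an adjusted p of 0.795. By unadjusted p under 0.05, Trim63 was the only member that was higher, 1 of 8, beside 2.78% of all genes tested.

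Within batch 1, Trim63 did separate by treatment. The 4 HK-treated mice had 294, 314, 314 and 394 CPM and the 4 UT mice 235, 259, 270 and 276 CPM. Such a complete separation with HK higher was met by 0.719% of all genes in that batch, and no other member showed it. The fit on batch 1 alone gave a log2 difference of 0.33 ± 0.094 with an unadjusted p of 0.00544 and an adjusted p of 0.997. In batch 2 the levels were 329 to 860 CPM in HK-treated and 252 to 645 CPM in UT mice, so the groups overlapped, and the log2 difference was 0.44 ± 0.29. An interaction test detected no difference between batches in the HK difference of Trim63 (log2 0.11 ± 0.38, adjusted p = 0.9997). With so large an SE, it cannot show that the HK difference was the same in both.

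Fbxo32, the other classic atrophy ligase, ranged from 62.4 to 97.1 CPM (median 74.6) in HK-treated and from 36.7 to 106 CPM (median 63.0) in UT mice. The HK range lay inside the UT range. The fold was 1.14 with a 95% interval of 0.908 to 1.43 and an adjusted p of 0.852. The ratio of Trim63 to Fbxo32 counts within a mouse was 3.29 to 12.6 (median 5.22) under HK and 3.30 to 8.49 (median 5.57) without it. An exact two-sided permutation test within sex and batch gave a log2 difference of 0.14 with p = 0.460 over 14400 arrangements. Fbxo30, with 15.4 to 25.2 CPM under HK and 15.5 to 26.5 CPM without, had a fold of 1.04 (0.914 to 1.18). Fbxo21, with 9.37 to 16.7 CPM under HK and 10.53 to 18.4 CPM without, had a fold of 0.978 (0.880 to 1.09). None of these intervals excluded a fold of 1.

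The FoxO factors gave narrow intervals for Foxo3 and Foxo4 and a wide one for Foxo1. Foxo3 was at 28.9 to 59.5 CPM under HK and at 22.5 to 59.5 CPM without, a fold of 1.03 (0.901 to 1.18). Foxo4 was at 160 to 223 CPM under HK and at 132 to 207 CPM without, a fold of 1.05 (0.960 to 1.16). Foxo1 was at 21.5 to 105 CPM (median 25.6) under HK and at 13.9 to 68.8 CPM (median 38.7) without. Its fitted fold of 1.18 and its medians differed in direction, and its interval ran from 0.777 to 1.79. Only 3 of 10 HK-treated mice lay above the UT median of Foxo1. The ratio of Foxo1 to Foxo3 counts was 0.555 to 2.70 under HK and 0.525 to 2.10 without, with a log2 difference of 0.12 (exact permutation p = 0.670 within sex and batch). Klf15 was at 31.3 to 83.6 CPM (median 47.7) under HK and at 25.9 to 75.3 CPM (median 40.2) without. Its fold was 1.17 (0.966 to 1.41; adjusted p = 0.809), and 9 of 10 HK-treated mice lay above the UT median.

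**Figure D2:**
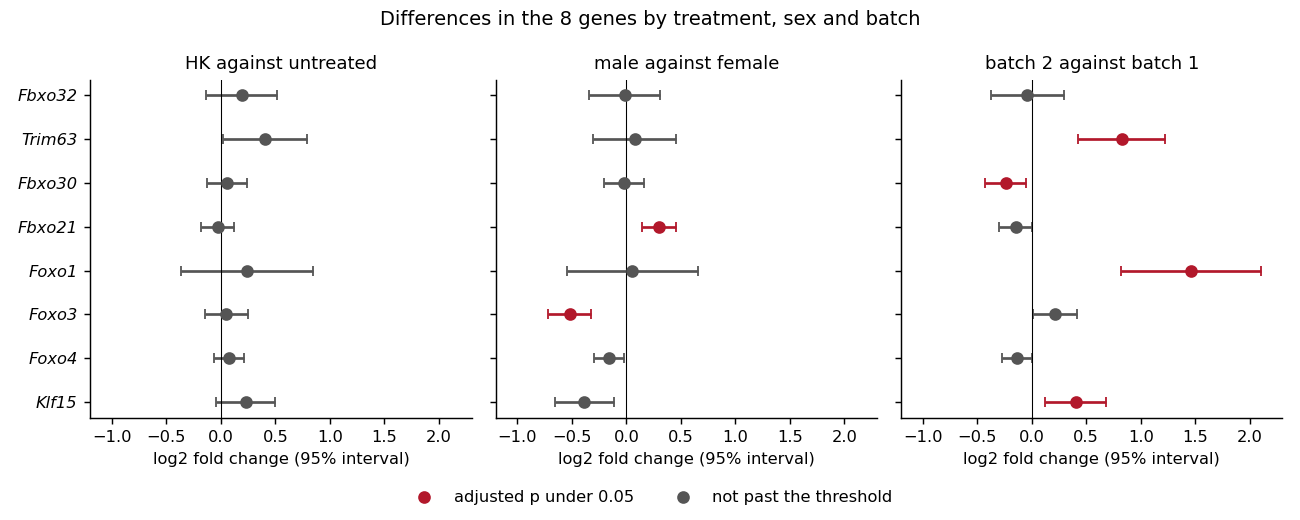
Fitted log2 fold change of each of the 8 genes (horizontal axis) with its 95% interval, for HK-treated against UT mice (left), males against females (middle) and batch 2 against batch 1 (right); red marks an adjusted p under 0.05. No gene is red for HK, Fbxo21 and Foxo3 are red for sex, and Trim63, Fbxo30, Foxo1 and Klf15 are red for batch.

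Whether the HK difference was the same in males and females was tested as an interaction over 13800 genes. None was called (0%) by edgeR, DESeq2 or limma voom, and 483 genes (3.50%) had an unadjusted p under 0.05 in edgeR. Among the members, only Fbxo30 did. Its mean was 22.1 ± 2.40 CPM in HK and 18.9 ± 2.32 CPM in UT males, and 20.2 ± 4.66 CPM in HK and 21.7 ± 3.12 CPM in UT females (SD, n = 5 each). The log2 interaction was 0.35 ± 0.16, with an adjusted p of 0.998. All 8 members had a term above 0 (median log2 0.22), as had 7047 of the 13800 genes. Foxo1 had the largest of the 8 (log2 0.66 ± 0.57, adjusted p = 0.998). The interaction of HK with batch likewise called 0 genes in all 3 tools, with 416 (3.01%) at an unadjusted p under 0.05, none of them a member. Klf15 had the largest such term of the 8 (log2 0.33 ± 0.27, adjusted p = 0.9997). Its means in batch 1 were 40.9 CPM under HK and 39.9 CPM without, and in batch 2 were 60.5 and 47.8 CPM.

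Males and females differed in Foxo3 and Fbxo21. Foxo3 was lower in males, at 22.5 to 38.7 CPM (median 31.7), than in females, at 36.7 to 59.5 CPM (median 42.5), and 0 of 10 males reached the female median. The log2 difference was −0.52 ± 0.095, a fold of 0.698 (95% interval 0.609 to 0.801), with an adjusted p of 0.000724. Fbxo21 was higher in males, at 12.9 to 18.4 CPM (median 14.4), than in females, at 9.37 to 15.04 CPM (median 12.3), and 10 of 10 males lay above the female median. Its fold was 1.23 (1.11 to 1.37) with an adjusted p of 0.00761. The members called were thus 1 of 8 higher in males, where 8.79% of all genes were, and 1 of 8 lower, where 7.33% were.

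Foxo3 separated the sexes within both batches. In batch 1 the males were at 28.4, 29.6, 31.7 and 31.9 CPM and the females at 36.7, 38.5, 38.8 and 43.7 CPM, a separation in this direction that 7.27% of genes shared. In batch 2 the males were at 22.5 to 38.7 CPM and the females at 39.9 to 59.5 CPM, a separation shared by 1.85% of genes. The log2 difference was −0.38 (adjusted p = 0.00970) in batch 1 alone and −0.62 (adjusted p = 0.0234) in batch 2 alone. Fbxo21 separated the sexes in batch 1, where males were at 15.7 to 18.4 CPM and females at 11.8 to 12.7 CPM, as 10.1% of genes did with males higher. In batch 2, where 2.18% of genes separated with males higher, its sexes overlapped and the call was lost (log2 0.19 ± 0.11, adjusted p = 0.298). Among UT mice alone Foxo3 kept its call (log2 −0.63, adjusted p = 0.0282) and Fbxo21 did not (log2 0.26, adjusted p = 0.239).

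Klf15 lay close to the threshold for sex. It was at 25.9 to 69.8 CPM (median 40.6) in males and 39.3 to 83.6 CPM (median 50.6) in females, a fold of 0.766 (0.633 to 0.927) with an adjusted p of 0.0516, and 1 of 10 males exceeded the female median. DESeq2 and limma voom put it past the threshold, at adjusted p of 0.0331 and 0.0470, as did edgeR with replicate number as a block, at 0.0484. Foxo4 had a fold of 0.897 (0.817 to 0.985; adjusted p = 0.107). Fbxo32, Trim63, Fbxo30 and Foxo1 had folds from 0.986 to 1.05 and adjusted p of 0.822 or more. Slow muscle markers were lower in males for 6 of 7 genes, summing to 771 to 6333 CPM in males (median 971) and 2509 to 4691 CPM in females (median 3401). Adipocyte markers were lower in males for 6 of 7 as well, with sums of 74.7 to 193 CPM in males and 98.5 to 321 CPM in females, and 1 of the 7 was at 0 in a male. Fast muscle markers were higher in males for 3 of 9 (168222 to 218635 CPM in males, 165624 to 228076 CPM in females). Macrophage markers were so for 1 of 8 (19.6 to 281 CPM in males, 34.0 to 176 CPM in females). At an unadjusted p under 0.05, 5 of 8 macrophage markers were higher in males, beside 2120 of the 13626 genes tested. In bulk RNA, fewer cells of a type and less RNA per cell cannot be told apart. The part of these marker groups in the sex difference of Foxo3 and Fbxo21 was not tested.

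Batch accounted for the widest differences of the 8 genes. Foxo1 was at 17.2 to 26.1 CPM (median 21.8) in the 8 mice of batch 1 and at 13.9 to 105 CPM (median 65.1) in the 12 mice of batch 2. The fold was 2.76 (95% interval 1.77 to 4.31; log2 1.47 ± 0.31) with an adjusted p of 0.00115. Trim63 was at 235 to 394 CPM (median 285) in batch 1 and 252 to 860 CPM (median 463) in batch 2, a fold of 1.77 (1.34 to 2.33; adjusted p = 0.00238). Klf15 was at 31.3 to 49.2 CPM in batch 1 and 25.9 to 83.6 CPM in batch 2, a fold of 1.32 (1.09 to 1.61; adjusted p = 0.0249). The call of Klf15 was lost without HK male 2 (adjusted p = 0.0558) and without HK female 2 (adjusted p = 0.0528). Foxo1, Trim63 and Klf15, 3 of 8, were higher in batch 2, where 18.2% of all genes were. Fbxo30 was lower (19.1 to 26.5 CPM in batch 1, 15.4 to 24.6 CPM in batch 2; fold 0.849, 0.745 to 0.967; adjusted p = 0.0447), 1 of 8 beside 19.0% of all genes, and its call was lost with DESeq2 size factors (adjusted p = 0.0606). All groups overlapped between batches.

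Fbxo32 did not follow Trim63 across batches: it was at 54.8 to 89.3 CPM in batch 1 and 36.7 to 106 CPM in batch 2, with a fold of 0.972 and an interval of 0.771 to 1.23. The difference between the 2 ligases in their batch response was not tested. Foxo3 had a fold of 1.16 (1.01 to 1.34; adjusted p = 0.0878), Foxo4 of 0.912 (0.829 to 1.003) and Fbxo21 of 0.902 (0.810 to 1.005). What else differed between the batches cannot be told apart from batch. Macrophage markers moved with it: 8 of 8 were higher in batch 2, with sums of 19.6 to 71.1 CPM in batch 1 and 63.8 to 281 CPM in batch 2. Red blood cell markers (5 of 5; 30.4 to 98.6 CPM and 60.8 to 403 CPM) and fibro-adipogenic progenitor markers (5 of 5; 134 to 334 CPM and 262 to 722 CPM) did so as well. None of these markers was at 0 in any mouse, and their part in the batch differences of the members was not tested.

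**Figure D3:**
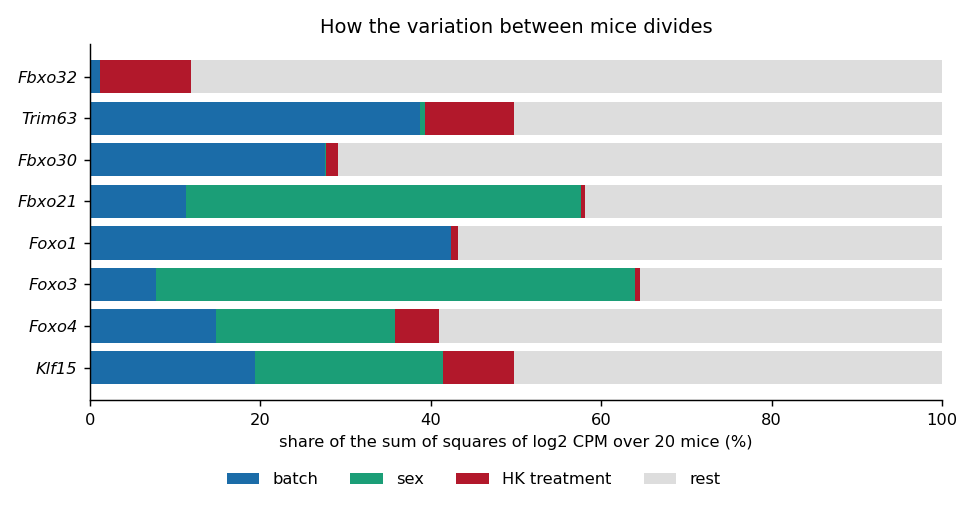
Share of the sum of squares of log2 CPM over 20 mice (horizontal axis, percent) that lay between batches (blue), sexes (green) and treatments (red), and the rest (gray), for each of the 8 genes. Sex takes 56.3% for Foxo3 and 46.3% for Fbxo21, batch 42.4% for Foxo1 and 38.8% for Trim63, and the rest 88.2% for Fbxo32.

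The variation of each gene divided differently among batch, sex and treatment. Sex held 56.3% of the sum of squares of Foxo3 and 46.3% of that of Fbxo21, whereas the median gene held 7.01%. Batch held 42.4% for Foxo1 and 38.8% for Trim63, whereas the median gene held 14.9%. Treatment held at most 10.7%, for Fbxo32, and at least 0.455%, for Fbxo21, whereas the median gene held 2.09%. Fbxo32 had 88.2% outside all 3 factors. After removal of the factors, the SD between mice was 0.78 log2 units for Foxo1 and 0.15 for Foxo4, with 0.22 the median of all genes.

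Foxo1 varied widely within batch 2. In log2 CPM over all 20 mice, its widest gap lay between 33.6 and 55.4 CPM. Below this gap lay 12 mice at 13.9 to 33.6 CPM, and above it 8 mice at 55.4 to 105 CPM. The place of the gap depends on the scale and on the mice used. In CPM the step from 68.8 to 99.1 CPM was wider. In log2 CPM over batch 2 alone, the step from UT male 4 to HK female 3 was wider. All 8 mice of batch 1 lay below and 8 of the 12 mice of batch 2 lay above. The upper set held 3 HK-treated and 5 UT mice, and 4 of its 8 mice were male. In batch 2, the mice below the gap were UT male 4 (13.9 CPM), HK female 3 (24.1 CPM), HK female 4 (25.2 CPM) and HK male 5 (33.6 CPM). The 3 highest mice for Foxo1, HK female 5, HK male 4 and HK male 3, at 105, 104 and 99.1 CPM, were also the 3 highest for Trim63, at 792, 860 and 857 CPM. UT female 3 had 67.8 CPM of Foxo1 and 310 CPM of Trim63, the lowest Trim63 of the upper set.

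Whether the members moved together from mouse to mouse was examined on log2 CPM after removal of batch, sex and treatment. Of 28 pairs, the 7 with Foxo1 are given no pooled correlation because its values were split at that gap. Their p-values entered the adjustment over 28. Of the other 21 pairs, 9 had a positive Pearson r with an adjusted p under 0.05, none a negative one, and the median r was 0.40 (permutation tests with 100000 resamples, adjusted over 28 pairs). By Spearman's rho 6 pairs passed. Without UT male 4 the positive pairs by Pearson r were 5, in batch 2 alone 5 and in batch 1 alone 0. The values of mice share library depth and scaling. The permutations took the residuals as exchangeable and did not count the removed terms. These p-values can therefore be too small, more so within a single batch, and pairs near the threshold are uncertain.

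Trim63 and Foxo3 had the highest r, 0.80 (permutation p = 2e-05, adjusted 0.000187; rho = 0.72, p = 0.000470, adjusted 0.00437). Without the 2 mice farthest from the median of Trim63, r was 0.70. In batch 2, r was 0.96 over 12 mice (permutation p = 1e-05, the smallest these resamples can give). In batch 1, r was −0.31 over 8 mice (permutation p = 0.452), too few to show that the relation was absent there. Trim63 with Klf15 had r = 0.67 (adjusted permutation p = 0.00472; rho = 0.54, adjusted 0.0514), with 0.64 after leaving out the 2 farthest mice, 0.81 in batch 2 and −0.53 in batch 1. Foxo3 with Klf15 had r = 0.74 (adjusted permutation p = 0.00103; rho = 0.65, adjusted 0.0109), with 0.54 after leaving out 2 mice, 0.82 in batch 2 and 0.40 in batch 1. The difference in r between batches was not tested.

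Fbxo32 passed with Foxo4 and Klf15. With Foxo4 it had r = 0.76 (permutation p = 1e-04, adjusted 0.000700; rho = 0.70, adjusted 0.00437), and r was 0.64 without the 2 mice farthest in Fbxo32, 0.70 in batch 1 and 0.83 in batch 2. With Klf15 it had r = 0.77 (adjusted permutation p = 0.000784; rho = 0.70, adjusted 0.00437), with 0.61, 0.60 and 0.83 for the same subsets. Foxo4 and Klf15 had r = 0.69 (adjusted permutation p = 0.00360; rho = 0.65, adjusted 0.0117), with 0.61, 0.80 and 0.69. These 3 relations had the same sign and a similar size in both batches. Trim63 and Foxo4 had r = 0.13 (adjusted permutation p = 0.670; rho = 0.0015). Whether Fbxo32 and Trim63 differ in their relation to any gene was not tested.

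Fbxo32 and Trim63 themselves had r = 0.53 (permutation p = 0.0156, adjusted 0.0397; rho = 0.45, adjusted 0.123). This fell to 0.26 without the 2 mice farthest in Fbxo32, and it was 0.21 in batch 1 and 0.64 in batch 2. Leaving out the farthest mice also narrows the range of Fbxo32, and whether r rested on those mice was not tested. Fbxo32 with Foxo3 behaved in the same way (r = 0.59, adjusted permutation p = 0.0183; rho = 0.50, adjusted 0.0734; r = 0.25 without 2 mice, 0.062 in batch 1 and 0.63 in batch 2). Trim63 with Fbxo30 had r = 0.53 (adjusted permutation p = 0.0432; rho = 0.56, adjusted 0.0412), with 0.45, 0.18 and 0.59. Fbxo21 had r from −0.075 to 0.41 with the 6 other genes and passed with none. Within the 8 mice above the gap of Foxo1 and the 12 below it, Foxo1 passed with no member: r with Trim63 was −0.20 and 0.33, and with Foxo3 0.062 and 0.49 (14 relations, adjusted permutation p of 0.667 or more). Splitting mice by Foxo1 narrows its range within each set, so these values cannot show that a relation was absent. Over the 12 mice of batch 2, which lie on both sides of the gap, Foxo1 had r = 0.95 with Foxo3, 0.88 with Trim63 and 0.67 with Klf15. Their permutation p were 1e-05, 6e-05 and 0.0181, unadjusted, and within a single batch these can be too small. Over the 8 mice of batch 1, all below the gap, r for these 3 pairs was 0.38, −0.63 and 0.072 (permutation p = 0.346, 0.104 and 0.837).

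**Figure D4:**
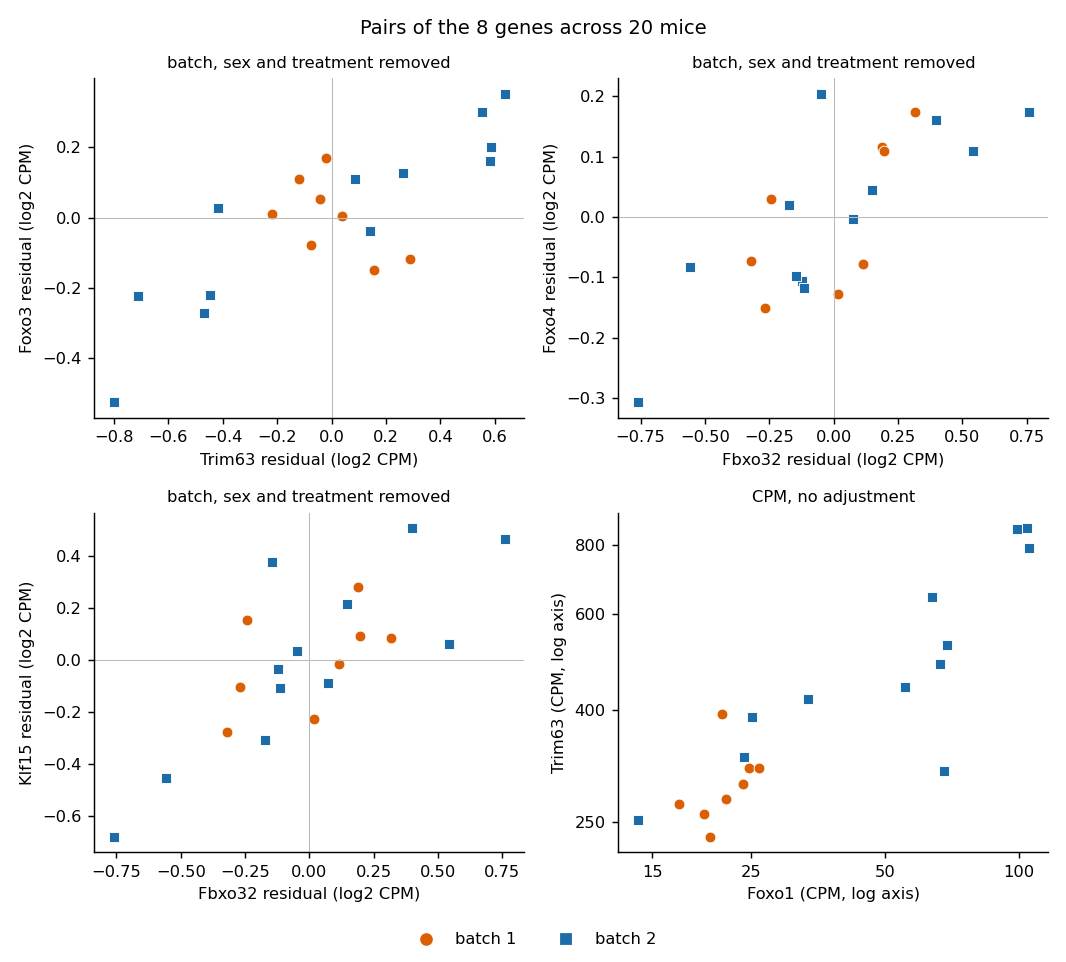
Pairs of genes across 20 mice (orange circles, batch 1; blue squares, batch 2): residual log2 CPM after removal of batch, sex and treatment for Trim63 and Foxo3, Fbxo32 and Foxo4, and Fbxo32 and Klf15, and CPM on log axes for Foxo1 and Trim63. Trim63 and Foxo3 had r = 0.96 in batch 2 and r = −0.31 in batch 1 (difference not tested), and the 3 mice with the highest Foxo1 have the highest Trim63.

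The genes whose pattern over the 20 mice was most like 3 of the members were looked up among all other genes tested, by Pearson r on the same residuals, as a description. For Fbxo32 these were Bckdha (r = 0.88), a subunit of the branched-chain keto acid dehydrogenase, Rpl3l (0.85), a muscle form of a ribosomal protein, and Ube2b (0.83), a ubiquitin-conjugating enzyme. For Trim63 they were Kdm4a (0.94), a histone demethylase, Prickle3 (0.90) and Map3k6 (0.86). For Foxo3 they were Cnksr3 (0.94), Wbp1l (0.93) and Plin4 (0.88), a lipid droplet protein. Without the 2 mice farthest in the member, these 9 values were 0.74 to 0.91.

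The pathways around the members were described by 8 lists with 10 to 20 genes each, all of which passed the low-count filter. For HK no gene of any list was called. The list of glucocorticoid receptor and its targets had the highest median log2 difference, 0.42, with 10 of 13 genes above 0 and 6 higher at an unadjusted p under 0.05. Over all genes tested the median was 0.0024, and 2.78% were higher and 3.35% lower at that p. Within it, Per1, a clock gene, had the lowest p (98.8 ± 55.3 CPM under HK, 47.0 ± 23.4 CPM without, SD, n = 10 each; log2 0.99 ± 0.21, adjusted p = 0.440), and Hsd11b1, which regenerates active glucocorticoid, had the lowest p among those below 0 (log2 −0.32 ± 0.20). The receptor gene itself, Nr3c1, named here after its value was seen, had a log2 difference of 0.16 ± 0.10. The other lists had medians from −0.017 to 0.053. In the interaction of HK with sex, 12 of 13 genes of the glucocorticoid list lay above 0, which is a higher HK difference in males. Their median term was log2 0.52. None was called, and 3 lay above 0 at an unadjusted p under 0.05, beside 250 of all 13800 genes.

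Among 20 FoxO target genes, 9 lay above and 11 below 0 for HK, with 3 and 1 at an unadjusted p under 0.05 (2.78% and 3.35% of all genes). Irs2, an insulin receptor substrate, was at 109 ± 96.1 CPM under HK and 43.2 ± 28.2 CPM without (log2 1.05 ± 0.34, adjusted p = 0.795), and Cited2 at 29.0 ± 10.1 and 37.9 ± 8.46 CPM (log2 −0.43 ± 0.18, adjusted p = 0.795). Of 19 genes of the signaling upstream of FoxO, 12 lay above 0, and Irs1 had the lowest p (95.04 ± 16.1 and 80.2 ± 18.1 CPM; log2 0.25 ± 0.093), while Pik3ca, a catalytic subunit of PI3 kinase, had the lowest p below 0 (log2 −0.074 ± 0.063). Of 17 other muscle E3 ligases and SCF subunits 12 lay above 0, led by Trim32 (log2 0.13 ± 0.059), with Fbxl22 (log2 −0.21 ± 0.17) leading those below. The list of ubiquitin, E2 and deubiquitinating enzymes held 14 genes, among them also Uba1, the E1 enzyme, Psmd11 and Zfand5. Of these 14, 10 lay above 0, led by Ube2b (log2 0.10 ± 0.050), with Uba1 at the lowest p below 0 (log2 −0.036 ± 0.043).

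Branched-chain amino acid and KLF15 targets had 6 of 11 genes above 0, with Gpt2 (log2 0.24 ± 0.093) and Gpt (log2 −0.089 ± 0.082), both alanine aminotransferases, at the lowest p in each direction. Denervation genes had 6 of 10 above 0, with Gadd45a (log2 0.34 ± 0.16) and Ncam1 (log2 −0.49 ± 0.22). Of 12 substrates of atrogin-1 and MuRF1, 7 lay above 0, with Ppp3ca, a calcineurin subunit, at log2 0.11 ± 0.053 and Myh7, the slow myosin heavy chain, at log2 −0.72 ± 0.36. All 7 slow muscle markers, Myh7 included, lay below 0 for HK, 5 of them at an unadjusted p under 0.05, beside 3.35% of all genes. Their summed levels were 771 to 3662 CPM under HK and 808 to 6333 CPM without. The sum of 6333 CPM came from UT male 3 alone. The other UT males were at 808 to 1977 CPM and the HK males at 771 to 1481 CPM. Females overlapped, at 2655 to 3662 CPM under HK and 2509 to 4691 CPM without. A shared sign was not particular to slow muscle. Macrophage (8 of 8), endothelial (5 of 5) and fibro-adipogenic progenitor markers (5 of 5) also all lay below 0 for HK. So did the 4 satellite cell markers tested, and 5 of 5 red blood cell markers lay above 0. At an unadjusted p under 0.05 in these lists were 1 endothelial and 1 red blood cell marker. Fast muscle (6 of 9 above 0) and adipocyte markers (4 of 7 above 0) had both signs.

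Between the sexes, 4 of 20 FoxO target genes were lower in males and 1 higher, where 7.33% of all genes were lower and 8.79% higher. Several of the list counts for sex lie near these shares. Sesn1, a stress-response sestrin, was at 22.7 ± 4.90 CPM in males and 49.3 ± 15.4 CPM in females (log2 −1.12 ± 0.13, adjusted p = 5.84e-06), and Sqstm1, the autophagy receptor p62, at 623 ± 53.1 and 513 ± 64.3 CPM (log2 0.28 ± 0.067, adjusted p = 0.00680). Upstream of FoxO, 3 of 19 genes were lower and 1 higher in males. Igf1, a growth factor that signals to Akt, was higher (18.4 ± 6.02 and 7.89 ± 2.54 CPM; log2 1.23 ± 0.19, adjusted p = 0.000150), and Irs1 was lower (75.3 ± 16.4 and 99.999 ± 10.1 CPM; log2 −0.42 ± 0.093, adjusted p = 0.00387). Of the 17 other E3 ligases 2 were higher, with Mib1 at 399 ± 77.3 CPM in males and 191 ± 62.7 CPM in females (log2 1.09 ± 0.12, adjusted p = 1.34e-06). Of the 12 substrates, 2 were higher and 3 lower. Tnni2, fast troponin I, was higher (log2 0.33 ± 0.061, adjusted p = 0.000891), and Mybpc1, slow myosin-binding protein C, was lower (log2 −0.52 ± 0.073, adjusted p = 3.90e-05).

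In the other lists 1 or 2 genes were called, near the 8.79% of all genes higher and 7.33% lower. Ube2b was the only gene called of the 14 in the ubiquitin and E2 list, lower in males (log2 −0.15 ± 0.050, adjusted p = 0.0480). Hsd11b1 was the only 1 of 13 glucocorticoid genes, higher in males (6.73 ± 2.55 and 3.96 ± 1.08 CPM; log2 0.75 ± 0.20, adjusted p = 0.0123). Gpt2 was higher (log2 0.41 ± 0.093, adjusted p = 0.00476) and Dbt, a branched-chain dehydrogenase subunit, lower (log2 −0.28 ± 0.076, adjusted p = 0.0151). Musk, a kinase of the neuromuscular junction, was higher (33.1 ± 12.5 and 17.8 ± 4.84 CPM; log2 0.89 ± 0.20, adjusted p = 0.00376) and Gadd45a lower (log2 −0.58 ± 0.16, adjusted p = 0.0178).

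Between batches, 10 of 13 genes of the glucocorticoid list were higher in batch 2 and none lower, with a median log2 difference of 1.28, whereas the median over all genes was 0.0025 and 18.2% of all genes were higher and 19.0% lower. Examples, chosen like the other genes of this paragraph after their values were seen, were Mt1, a metallothionein (69.0 ± 69.1 CPM in batch 2, 4.98 ± 1.42 CPM in batch 1; log2 3.76 ± 0.53), Ddit4 (107 ± 106 and 5.19 ± 2.18 CPM; log2 4.05 ± 0.63), Tsc22d3 (342 ± 95.8 and 181 ± 37.0 CPM; log2 0.92 ± 0.13) and Fkbp5 (81.2 ± 37.7 and 38.0 ± 9.21 CPM; log2 1.085 ± 0.29). Nr3c1 was at 126 ± 27.2 CPM in batch 2 and 142 ± 21.7 CPM in batch 1 (adjusted p = 0.204). Denervation genes were higher for 5 of 10 and lower for 1, among them Myog (19.2 ± 7.45 and 5.66 ± 3.88 CPM; log2 1.85 ± 0.33). FoxO targets were higher for 4 of 20 and lower for 5, with Irs2 (log2 1.59) and Pik3ip1 (log2 −0.70) at the lowest p, counts near the shares of all genes. Other E3 ligases and SCF subunits were lower for 10 of 17 and higher for 1, and genes of the ubiquitin and E2 list lower for 6 of 14 and higher for 1. Upstream genes were lower for 6 of 19 and higher for 1, branched-chain and KLF15 targets higher for 3 of 11 and lower for 1, and substrates higher for 2 of 12 and lower for 1.

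**Figure D5:**
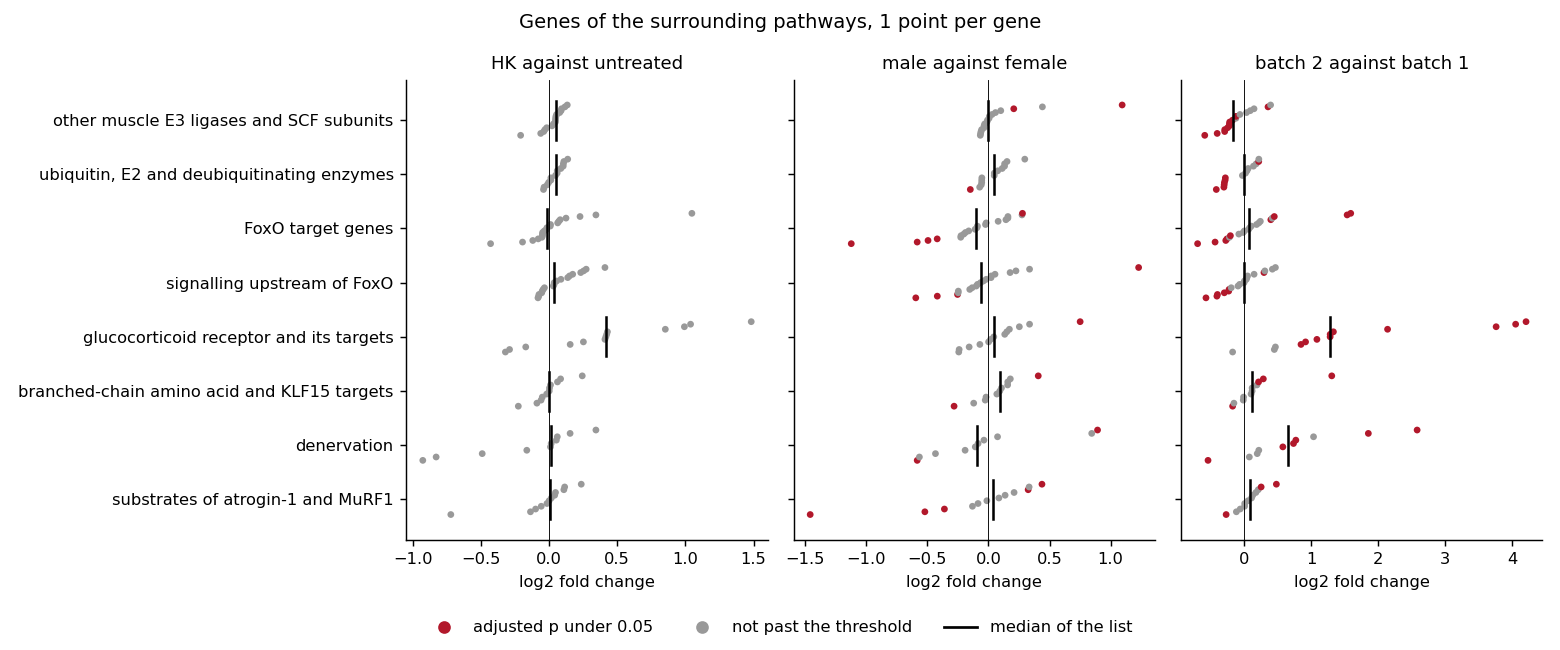
Log2 fold change (horizontal axis; its range differs between panels) of each gene of the 8 pathway lists, 1 point per gene, for HK-treated against UT mice, males against females and batch 2 against batch 1; red marks an adjusted p under 0.05 and black bars the median of each list. The glucocorticoid list has a median of 0.42 for HK with no gene called, and of 1.28 for batch with 10 of 13 called.

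Relations of the members to summed markers were examined on the same residuals. Their permutation p-values carry the same limit as those of the pairs and can be too small. Foxo4 had r = −0.76 with the summed macrophage markers (permutation p = 0.000170, adjusted 0.0109; rho = −0.73, p = 0.000500, adjusted 0.0320) and r = 0.68 with the fast muscle markers (permutation p = 0.00121, adjusted 0.0387; rho = 0.66, p = 0.00213, adjusted 0.0502). Without the 2 mice farthest from the median of the marker sum, r was −0.74 and 0.58. UT male 4, the lowest mouse for Foxo4 (132 CPM), had 275 CPM of macrophage and 168222 CPM of fast muscle markers. The relations were not recomputed without this mouse alone. None of the other relations among the 64 between a member and a marker list passed by Pearson r. Trim63 with satellite cell markers (r = 0.63, adjusted permutation p = 0.0631; rho = 0.64, adjusted 0.0502) and Fbxo21 with fast muscle markers (r = 0.53, adjusted 0.267; rho = 0.64, adjusted 0.0502) lay close to the threshold by rho. Fbxo32 had the signs of Foxo4, with r = −0.49 for macrophage and 0.46 for fast muscle markers (adjusted permutation p = 0.371 for both). Trim63 had r = 0.30 and −0.071 with these lists. The relations are thus not shown to be particular to Foxo4. Foxo1 was among the 64 and its pooled values are not given. These relations were chosen after the data had been seen.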

How the data were processed

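RNA of the gastrocnemius of 20 mice was sequenced after removal of ribosomal RNA. Per the submitters' processing notes and the study's methods, the authors aligned reads with STAR 2.6.1c to GRCm38.p6 with gene models of GENCODE M25. The deposited values are unnormalized counts for each gene. Which tool counted reads, whether by strand, and how it treated multiply mapped reads is not given in the sources used here. Counts of overlapping genes cannot be told apart by strand. Treatment, sex, batch and replicate number came from the labels. Each mouse is 1 sample.

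Counts were tested with edgeR 4.0.16 in R 4.3.3 (quasi-likelihood, TMM, filterByExpr, batch, sex and treatment as terms, Benjamini-Hochberg adjustment over 13626 genes, or 13800 for interactions), tested beforehand on simulated data. CPM were TMM-scaled. RPKM used exon lengths of GENCODE M21, matched to 55141 of 55401 identifiers. Log2 CPM used a prior count of 2. Correlations and ratios were tested by permutation in Python 3.11.15 with numpy 2.4.6. Alternatives included DESeq2 1.42.0, limma voom 3.58.1, other scaling and filters, a replicate block, subsets and each mouse left out. Each member had 172 counts or more in every mouse.

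The members, the gene lists and the tests were chosen with earlier results of these data known. The named genes are all 8 members, from each pathway list the gene of lowest p in each direction for HK and, where called, for sex, the 3 genes most like Fbxo32, Trim63 and Foxo3, and those said to be chosen after their values were seen. Young mice were not analysed here. No sequence of a protein is shown.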

Additional observations from a re-analysis of the deposited data

Results flagged for a closer look

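In 32 groups of 5 mice (8 genes in 4 groups), a Dixon test at the 95% level was run on log2 CPM for the highest and the lowest mouse. With values of a single spread, chance would mark about 1 in 20 groups. Batch was not removed and each group held mice of both batches, so this rate need not hold for genes that differ by batch. It marked 4, all in HK females. HK female 5 stood above the other 4 HK females for Foxo1 (105 CPM against 21.5 to 26.1 CPM), for Trim63 (792 CPM against 314 to 394 CPM) and for Foxo3 (59.5 CPM against 38.8 to 43.7 CPM). These 3 are values of a single mouse and are not independent. For Foxo1, HK female 5 was among the 8 mice of batch 2 above the gap, and HK females 3 and 4, also of batch 2, lay below it. HK female 4 stood below the others for Fbxo21 (9.37 CPM against 12.3 to 13.5 CPM).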

How the results depend on the processing

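HK called no member with DESeq2 size factors, DESeq2, limma voom, other covariates, a single batch or sex, or any mouse left out. Without the low-count filter, edgeR called 247 genes higher and 255 lower, 2 members among the former (Trim63 and Foxo1), 187 and 127 genes for HK by sex (1 member, Foxo1) and 127 and 98 for HK by batch. There the prior degrees of freedom for a gene's spread were infinite, against 4.26 with the filter. With edgeR's current estimate, added after the data were seen, no filter called 0 for HK and 1 higher for HK by batch. DESeq2 called 6 genes higher and 1 lower for HK, and leaving out a mouse 0 to 1 lower. For sex, 2 members were lower (Foxo3 and Klf15) without the filter, with the current estimate with or without it, with DESeq2, with limma voom and with a replicate block. Untreated mice alone gave 251 genes higher and 238 lower with 0 members higher, batch 1 alone 777 and 539, and batch 2 alone 484 and 394 with 0 members higher. Between batches, 0 members were lower with DESeq2 size factors, with DESeq2 and with the current estimate without the filter. Of the pair correlations, 4 were positive past the threshold without removal of batch, sex and treatment, 0 in batch 1 alone and 5 in batch 2 alone. The cause of these changes was not tested.

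Some log2 differences that passed no threshold changed sign. For HK, Foxo4 was −0.0049 in batch 1 alone, and in females alone Fbxo30 was −0.13, Foxo1 −0.10, Foxo3 −0.045 and the ratio of Foxo1 to Foxo3 −0.26. For sex, Trim63 was −0.086 and Foxo1 −0.29 in untreated mice alone. In batch 1 alone Fbxo32 was 0.19, Trim63 −0.090 and Foxo1 −0.086, in batch 2 alone Fbxo30 was 0.11, and with the block Fbxo32 was 0.0017.

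When single mice were left out, the members lower in males ranged from 1 to 3 and those lower in batch 2 from 0 to 2, Fbxo30 losing its call in 12 of 20 cases. Positive pairs ranged from 5 (without untreated male 4) to 10, and the ratio of Foxo1 to Foxo3 from −0.056 (without untreated male 4) to 0.23. Signs also changed within these ranges. For HK, Fbxo21 was −0.065 to 0.011 and Foxo3 −0.0072 to 0.089. For sex, Fbxo32 was −0.091 to 0.065, Trim63 −0.020 to 0.15, Fbxo30 −0.083 to 0.015 and Foxo1 −0.082 to 0.21. For batch, Fbxo32 was −0.13 to 0.023. For HK by sex, Fbxo21 was −0.060 to 0.10, Foxo4 −0.024 to 0.12 and Klf15 −0.048 to 0.22. For HK by batch, Fbxo32 was −0.24 to 0.077, Trim63 −0.043 to 0.25, Fbxo30 −0.18 to 0.0070, Fbxo21 −0.057 to 0.098, Foxo1 −0.33 to 0.12 and Foxo3 −0.16 to 0.022.

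The HK-treated and the untreated mouse of the same sex and replicate number had deviations from their group means that correlated at 0.16 to 0.52, over 0.1 in 10 of 10 pairs. Replicate numbers 1 and 2 are batch 1 and the others batch 2, and with batch, a term of every fit, removed as well the correlations were −0.42 to 0.17, over 0.1 in 4 of 10 pairs. Beyond batch the numbers were therefore not taken to pair the mice. The replicate block gave 0 genes called for HK, 1038 higher and 908 lower for sex, and log2 0.37 for Trim63 under HK (adjusted p = 0.778). Counting error and spread between mice were not separated.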
